A study of Homo sapiens with 12 samples.

Results

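The genes described here are the chaperones, folding enzymes, degradation factors, translocation channels and vesicle coat genes of the endoplasmic reticulum (ER), the compartment in which secreted proteins are made, in IMR90 lung fibroblasts undergoing Ras-induced senescence. They were taken from a list of 46 symbols, keeping each gene that reached 10 normalized counts in 2 or more of the 12 libraries. Of the 46, 45 were in the table under their listed symbol and all 45 passed, out of 13924 passing genes among 27106 in all. The remaining symbol, ERO1L, stands in the table as ERO1A and is given apart from the 45. IMR90 is a normal human lung fibroblast line. The cells used here were immortalised with the telomerase gene hTERT and carried RasERT2, an oncogenic Ras that tamoxifen switches on. They expressed either a short hairpin RNA targeting the interleukin-1 receptor (shIL1R) or a scrambled control hairpin (shScr) and were given 0.5 µg/ml doxycycline to induce the knockdown. Tamoxifen was used at 200 nM, with ethanol as its control, and RNA was taken at day 0 (growing cells), day 4 (labelled as the start of the secretory response) and day 10 (senescent cells). Each of the 6 groups had 2 libraries. The study design names 2 hairpins against the receptor, and the labels do not say whether shIL1R replicates 1 and 2 carried different hairpins or whether same-group libraries came from separate cultures. The p-values therefore measure the spread between these libraries, which may be technical, in 1 cell line.

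Proteins that enter the ER are threaded through the SEC61 channel, trimmed by signal peptidase, folded by chaperones such as BiP (HSPA5), cross-linked by disulfide isomerases and shipped in COPII vesicles. Chains that fail to fold are returned to the cytosol and destroyed by ER-associated degradation. When unfolded chains pile up, the sensors IRE1 (ERN1), PERK (EIF2AK3) and ATF6 start the unfolded protein response, in which IRE1 splices the XBP1 messenger RNA and the XBP1 and ATF6 proteins switch on chaperone and degradation genes. Fibroblasts made senescent by oncogenic Ras are known for a large secretory output of cytokines, growth factors and proteases, which interleukin-1 signalling promotes.

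The libraries held 24140324 to 30127727 reads recovered from the normalized counts, and 1 read was worth 0.834 to 1.20 normalized counts. The targeted gene, IL1R1, had 731 and 378 normalized counts on day 0, 272 and 86.4 on day 4 and 295 and 279.9 on day 10 in shIL1R cells, against 1509 and 1552 on day 0, 1546 and 1423 on day 4 and 1580.1 and 1239.6 on day 10 in shScr cells, so both shIL1R libraries were below both shScr libraries at each day. The difference was called at day 4 (-3.27 ± 0.42, limma adjusted p = 0.0205) and day 10 (-2.28 ± 0.42, adjusted p = 0.0102) but not at day 0 (-1.54 ± 0.42, adjusted p = 0.281). All 10 fibroblast markers were abundant (the lowest, LUM, at 238 to 2339 normalized counts), and markers of other cell types were a mixture. Of 6 epithelial, 6 leukocyte, 5 endothelial and 5 plasma cell markers, KRT5, KRT14, CD3E and CDH5 were at 0 in every library, PTPRC reached at most 3.04 normalized counts and CDH1 at most 2.03. Others were counted, with CLDN4 at 39.6 to 171, KDR at 1.67 to 216, VWF at 2.503 to 63.7, TEK at 992 to 3249, SDC1 at 463 to 775 and PRDM1 at 855 to 3487 normalized counts. At day 10 against day 0 in shScr cells, KDR (4.502 ± 0.64), VWF (3.15 ± 0.51), PRDM1 (1.498 ± 0.28) and CD68 (1.43 ± 0.15) were called higher by limma and TEK lower (-0.62 ± 0.18). The summed plasma cell markers were 3049 and 3234 normalized counts at shScr day 10, against 1632 and 1622 at shScr day 0, and the summed endothelial markers 1349 and 1161, against 1792 and 1649.8. Nearly all of the plasma cell sum was PRDM1 and SDC1. The other plasma cell markers were near 0, with TNFRSF17 at most 2.503, MZB1 at most 1.20 and JCHAIN at most 14.7 normalized counts. The summed 6 leukocyte markers were 8934 and 7315 normalized counts at shScr day 10, against 2866 and 3149 at shScr day 0, nearly all of it CD68, which is also a lysosomal gene (2839 to 8920 over the 12 libraries), and the summed 10 fibroblast markers were 329725 and 317635, against 445788 and 397145; their part in the day 10 changes was not tested. Replicate 2 of shIL1R day 10 stood apart. On the first principal component, which carried 68.9% of the variance, it lay at 45.9, against 77.2 for its partner and 90.5 and 89.2 for the 2 shScr day 10 libraries, and 7.58% of all tested genes differed by over 1 on the log2 scale between it and its partner. Its sum over the 10 fibroblast markers was 485136 normalized counts, against 327697 in replicate 1. For genes whose call changed without it, the values without it are given beside the result. Gene-level counts cannot tell fewer cells of a type from less RNA per cell.

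The promoters of several of these genes carry sequence elements through which ATF6 and XBP1 are known to act. The windows of 5 such genes are printed, beside 2 without a match, to show what the elements look like in genes that changed. RefSeq windows from 250 bases before to 50 after the annotated start (GRCh38.p14, 5′ to 3′ on the strand of the gene) were matched for 40 of the 45 genes, all but PDIA3, DERL1, SPCS1, SEC24D and KDELR2, and some genes have more than 1 window. The following elements were searched on both strands, the ER stress response element ERSE (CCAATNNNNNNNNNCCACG), the element ERSE-II (ATTGGNCCACG) and the unfolded protein response element UPRE (TGACGTGG), and capitals mark the matches. HSPA5 (BiP, the main Hsp70 chaperone of the ER; chr9:125241294-125241593, minus strand) holds an ERSE at -66 to -48 from the start. HSP90B1 (GRP94, the ER Hsp90; chr12:103930160-103930459, plus strand) holds ERSEs at -194 to -176 and -89 to -71. XBP1 (chr22:28800520-28800819, minus strand) holds an ERSE at -52 to -34. HERPUD1, a membrane protein of the degradation complex (chr16:56931892-56932191, plus strand), holds an ERSE-II at -117 to -107. HYOU1 (GRP170, a nucleotide exchange factor for BiP; chr11:119057156-119057455, minus strand) holds ERSE-II at -185 to -175 and -79 to -69, the first overlapping a UPRE at -188 to -181. The windows of DNAJB9 (ERdj4, a co-chaperone of BiP; chr7:108569624-108569923, plus strand) and CREB3L1 (a membrane-tethered transcription factor; chr11:46294909-46295208, plus strand) hold none of the 3.
HSPA5: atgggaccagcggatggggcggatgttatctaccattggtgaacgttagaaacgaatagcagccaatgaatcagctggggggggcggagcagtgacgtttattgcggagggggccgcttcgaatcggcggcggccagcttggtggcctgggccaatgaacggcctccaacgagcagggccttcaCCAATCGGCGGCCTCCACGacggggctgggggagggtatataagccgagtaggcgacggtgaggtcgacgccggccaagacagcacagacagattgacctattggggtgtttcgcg
HSP90B1: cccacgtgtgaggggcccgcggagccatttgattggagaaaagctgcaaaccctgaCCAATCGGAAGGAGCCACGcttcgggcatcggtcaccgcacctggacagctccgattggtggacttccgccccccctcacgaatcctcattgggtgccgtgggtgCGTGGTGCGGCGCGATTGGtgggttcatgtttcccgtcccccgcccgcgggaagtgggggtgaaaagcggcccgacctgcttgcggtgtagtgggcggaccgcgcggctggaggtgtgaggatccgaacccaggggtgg
XBP1: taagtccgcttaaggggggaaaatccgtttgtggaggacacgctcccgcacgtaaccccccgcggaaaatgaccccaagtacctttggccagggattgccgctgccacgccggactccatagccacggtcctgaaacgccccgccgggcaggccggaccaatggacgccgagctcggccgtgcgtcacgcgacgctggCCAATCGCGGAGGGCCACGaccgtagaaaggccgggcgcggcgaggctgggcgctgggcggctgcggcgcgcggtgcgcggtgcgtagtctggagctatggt
HERPUD1: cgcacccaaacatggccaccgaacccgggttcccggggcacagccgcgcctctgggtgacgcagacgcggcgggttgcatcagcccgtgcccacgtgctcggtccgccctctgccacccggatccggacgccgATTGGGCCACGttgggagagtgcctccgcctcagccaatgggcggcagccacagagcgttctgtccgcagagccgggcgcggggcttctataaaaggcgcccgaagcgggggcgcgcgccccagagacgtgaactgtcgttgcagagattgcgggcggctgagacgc
HYOU1: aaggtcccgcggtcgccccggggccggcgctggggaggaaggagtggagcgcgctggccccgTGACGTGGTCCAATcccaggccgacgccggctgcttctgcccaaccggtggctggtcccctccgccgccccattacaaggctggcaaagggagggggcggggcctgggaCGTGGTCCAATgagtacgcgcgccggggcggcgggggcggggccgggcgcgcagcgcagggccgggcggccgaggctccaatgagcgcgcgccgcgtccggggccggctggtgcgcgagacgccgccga
DNAJB9: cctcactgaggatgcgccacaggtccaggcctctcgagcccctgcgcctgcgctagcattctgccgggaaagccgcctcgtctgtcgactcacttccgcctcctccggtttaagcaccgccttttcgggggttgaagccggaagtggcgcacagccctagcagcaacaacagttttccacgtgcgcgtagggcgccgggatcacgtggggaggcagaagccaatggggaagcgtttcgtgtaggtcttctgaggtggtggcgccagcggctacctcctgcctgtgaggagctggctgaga
CREB3L1: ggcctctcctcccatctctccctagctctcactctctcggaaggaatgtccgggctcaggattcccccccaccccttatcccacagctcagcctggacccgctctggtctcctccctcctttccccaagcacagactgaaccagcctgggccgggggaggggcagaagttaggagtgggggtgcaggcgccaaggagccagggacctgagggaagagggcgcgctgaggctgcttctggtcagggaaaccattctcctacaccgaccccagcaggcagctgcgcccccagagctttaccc

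Of all 27305 genes with a window, 25 (0.0916%) held an ERSE, 19 (0.0696%) an ERSE-II and 253 (0.927%) a UPRE, and 295 (1.08%) held at least 1 of them. Among the 40 matched genes of the set, 7 (17.5%) held an ERSE, 3 (7.5%) an ERSE-II, 5 (12.5%) a UPRE and 14 (35%) at least 1. The ERSE genes were CALR, CANX, CRELD2, HSP90B1, HSPA5, PDIA6 and XBP1, the ERSE-II genes HERPUD1, HYOU1 and SDF2L1, and the UPRE genes HYOU1, KDELR3, SSR3, SSR4 and TXNDC5. The letters found describe the sequence only, and a window without a match says nothing about the factors.

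In control cells, the move to senescence came with higher levels of most of the set. At day 10 against day 0 in shScr cells, 33 of the 45 genes were called higher and 3 lower (limma, adjusted p below 0.05 over 13924 genes), while 32.5% of all tested genes were higher and 31.3% lower. The median log2 fold change over the 45 was 0.53, against 0.01 over all tested genes. By role, all 11 lumenal chaperones were higher (median log2 fold change 1.05), as were 5 of 6 disulfide isomerases (0.68), 6 of 7 degradation genes (1.26), 4 of 10 translocation and signal peptidase genes (0.20) and 4 of 5 vesicle genes (0.44). The 6 sensors and transcription factors split, 3 higher and 3 lower. In 38 of the 45 both day 10 libraries lay above both day 0 libraries, an arrangement that 42.6% of all tested genes showed. In 4 both lay below, for which the share of all tested genes is not given here. The calls of 19 genes, 17 of them higher, held under all 22 alternative fits, which include leaving out each library. Without shScr day 10 replicate 2 the count of 36 was 23. The share of reads on RNA45S5, the ribosomal RNA precursor, moved with the day: it was 2.52 and 2.51% at shScr day 10, against 1.34 and 1.42% at shScr day 0, and 2.999 and 2.65% at shIL1R day 10, against 1.42 and 1.47% at shIL1R day 0, and its part in the changes was not tested.

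**Figure D1:**
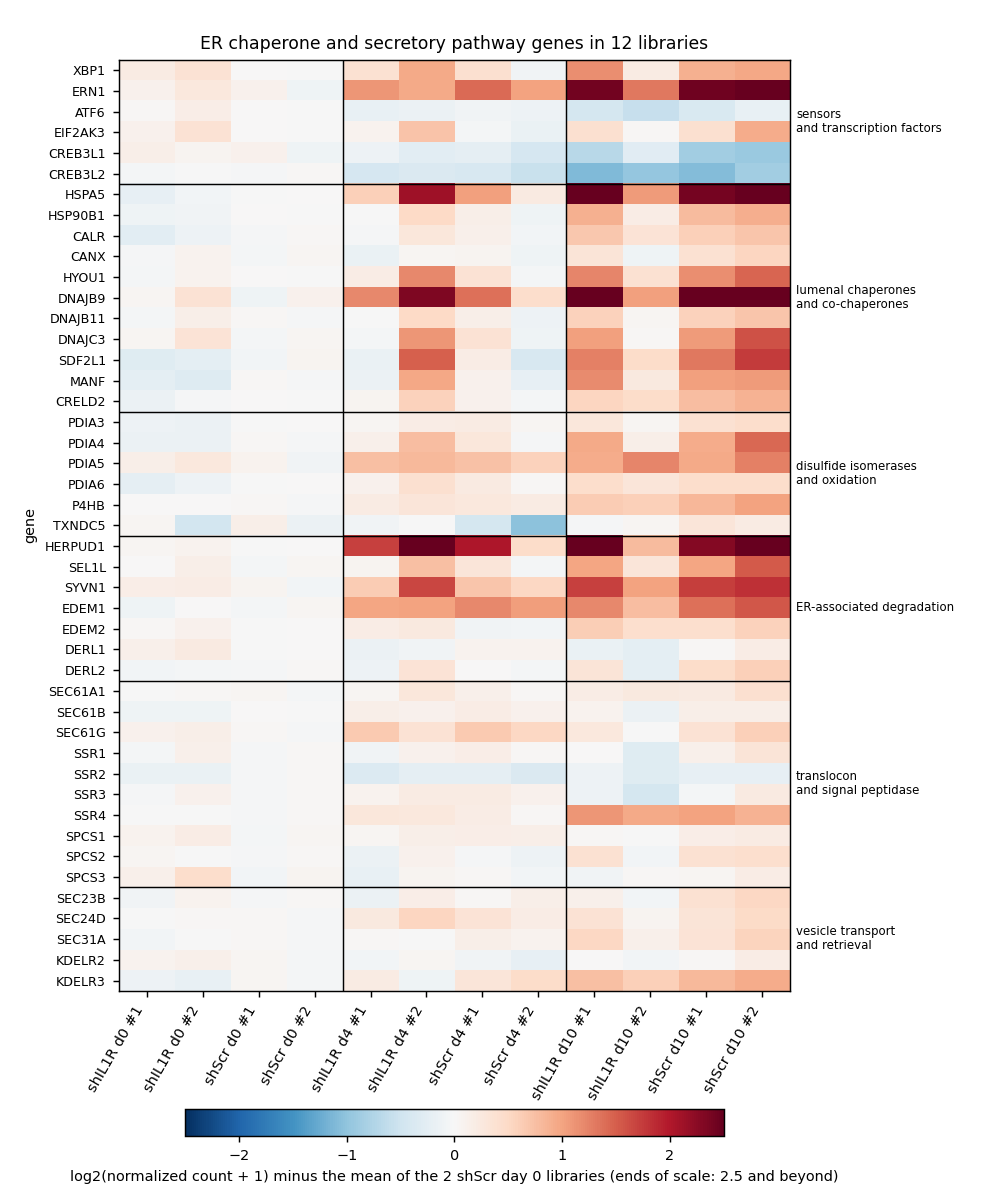
Level of each of the 45 genes (rows, by role) in each of the 12 libraries (columns, shIL1R left of shScr within a day), as log2(normalized count + 1) minus the mean of the 2 shScr day 0 libraries; the colour scale runs from -2.5 to 2.5. Most chaperone and degradation rows are high in both shScr day 10 libraries and in replicate 1 of shIL1R day 10. Several are also high in replicate 2 of shIL1R day 4, most of all HERPUD1, DNAJB9 and HSPA5, and also SYVN1, SDF2L1, HYOU1 and DNAJC3.

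Among the lumenal chaperones, HSPA5 and its co-chaperone DNAJB9 had the largest folds in shScr cells. HSPA5 had 29068 and 29845 normalized counts on day 0, 59684 and 34242 on day 4 and 155635 and 184102 on day 10 in shScr cells. Both day 10 libraries were far above both day 0 libraries, and the day 4 libraries lay between and apart from each other. The log2 fold change at day 10 against day 0 was 2.52 ± 0.52 (SE; limma adjusted p = 0.00146). As a share of all reads, HSPA5 made up 0.540% (95% exact binomial interval 0.537 to 0.543%) and 0.613% (0.610 to 0.616%) of the shScr day 10 libraries, against 0.117% (0.116 to 0.118%) and 0.119% (0.118 to 0.12%) of the shScr day 0 libraries; these intervals cover counting error only. DNAJB9, which brings unfolded chains to BiP, had 298 and 342 normalized counts on day 0, 830.4 and 433 on day 4 and 2111 and 2769.8 on day 10. This was the largest fold of the 45, 2.92 ± 0.48 (SE; limma adjusted p = 0.000292) on the log2 scale. SDF2L1, a partner of the co-chaperone DNAJB11, had 1387 and 1865 normalized counts at day 10, against 526 and 583 at day 0, a log2 fold change of 1.54 ± 0.43 (SE; limma adjusted p = 0.00891). In each of these 3 genes the day 10 and day 0 libraries did not overlap.

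The other lumenal chaperones changed by smaller folds. HYOU1 had 11941 and 14642 normalized counts at day 10, against 5420.4 and 5302 at day 0, a log2 fold change of 1.30 ± 0.31 (SE; limma adjusted p = 0.00331). DNAJC3 (p58IPK), a co-chaperone of BiP that is also known as an inhibitor of PERK, was at 1.33 ± 0.37 (adjusted p = 0.00818) and MANF, a secreted BiP-binding factor, at 1.05 ± 0.32 (adjusted p = 0.0149). HSP90B1 had 58657 and 63643 normalized counts at day 10, against 34069 and 33731 at day 0, a log2 fold change of 0.85 ± 0.21 (SE; limma adjusted p = 0.00407). The lectin chaperones, which hold glycoproteins until they fold, were closer to their day 0 level: CALR was at 0.64 ± 0.14 and CANX at 0.46 ± 0.14. CRELD2, a stress-induced ER protein, was at 0.83 ± 0.14 and DNAJB11 at 0.63 ± 0.18. Without shScr day 10 replicate 2 the calls of DNAJC3 (1.07, adjusted p = 0.0723), SDF2L1 (1.32, adjusted p = 0.0662), DNAJB11 (0.57, adjusted p = 0.0675), CANX (0.38, adjusted p = 0.0926) and MANF were lost, and those of DNAJB11 and CANX also without 1 day 0 library, replicate 2 for DNAJB11 (adjusted p = 0.0589) and replicate 1 for CANX (adjusted p = 0.0805). MANF was lost whichever of the 4 libraries compared was left out (adjusted p 0.0545 to 0.0643). CALR, CANX and HSP90B1 were not called after quantile normalization, at 0.26, 0.11 and 0.44.

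Of the disulfide isomerases, 5 of 6 were higher in shScr cells at day 10. PDI itself, P4HB, which is also the beta subunit of collagen prolyl 4-hydroxylase, had 30279 and 29277 normalized counts on day 0, 35914 and 34180.0 on day 4 and 53129 and 59759 on day 10. Both day 10 libraries were above all 4 earlier ones, and the log2 fold change over day 0 was 0.92 ± 0.09 (SE; limma adjusted p = 4.94e-06). PDIA4 (ERp72) had 20501 and 29006 normalized counts at day 10, against 10925 and 10591 at day 0, a log2 fold change of 1.18 ± 0.26 (SE; limma adjusted p = 0.00226). PDIA5, another isomerase of the family, had 800.1 and 985 normalized counts at day 10, against 436 and 389 at day 0, a log2 fold change of 1.11 ± 0.13 (SE; limma adjusted p = 3.05e-05). PDIA3 (ERp57), the partner of the lectin chaperones, was at 0.41 ± 0.10 and PDIA6 at 0.44 ± 0.11; PDIA3 was not called after quantile normalization (0.13). TXNDC5 was counted at only 42.6 to 109 normalized counts in the 12 libraries and overlaps a read-through gene, BLOC1S5-TXNDC5, listed at 0 throughout, so its level is uncertain; it was not called (0.25, adjusted p = 0.393). ERO1A, the oxidase that recharges PDI, had 4421 and 4672 normalized counts on day 0, 8153 and 7543 on day 4 and 12709 and 15226 on day 10. Its log2 fold change at day 10 over day 0 was 1.61 ± 0.10 (SE; limma adjusted p = 1.91e-07), and its day 10 libraries were above every earlier one.

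Of the 7 degradation genes, HERPUD1 changed by the largest fold. HERPUD1 had 1586 and 1623 normalized counts on day 0, 6489 and 2195 on day 4 and 7831 and 15817 on day 10 in shScr cells. The day 4 libraries differed from each other by more than 1 on the log2 scale, as did the day 10 libraries, yet every day 4 and day 10 library was above both day 0 libraries. Its log2 fold change at day 10 was 2.79 ± 0.68 (SE; limma adjusted p = 0.00392). SYVN1 (HRD1), the ubiquitin ligase at the centre of the pathway, had 1104 and 994 normalized counts on day 0, 1689 and 1505 on day 4 and 3481 and 3739 on day 10, a log2 fold change of 1.78 ± 0.28 (SE; limma adjusted p = 0.000187) at day 10. Its adaptor SEL1L had 8473 and 12488 normalized counts at day 10, against 4167 and 4446 at day 0, a log2 fold change of 1.26 ± 0.26 (SE; limma adjusted p = 0.00141). EDEM1, which trims mannose from misfolded glycoproteins, had 3310.1 and 3509 normalized counts on day 0, 7841 and 7052 on day 4 and 8835 and 9975 on day 10. It was above day 0 in all 4 later shScr libraries, with a log2 fold change of 1.46 ± 0.13 (SE; limma adjusted p = 2.34e-06) at day 10. Its relative EDEM2 was at 0.49 ± 0.10 and DERL2, of the retrotranslocation machinery, at 0.53 ± 0.18, the call of DERL2 being lost without shScr day 10 replicate 2 (0.47, adjusted p = 0.108) and without either day 0 library. DERL1, its paralog, was not called (0.11 ± 0.08, adjusted p = 0.255), with 1910.5 and 2112 normalized counts at day 10, against 1857 and 1871 at day 0.

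The sensors and transcription factors did not move as a group. ERN1, the IRE1 sensor, had 193 and 165 normalized counts on day 0, 481 and 358 on day 4 and 972 and 1251 on day 10 in shScr cells. It was above day 0 in all 4 later shScr libraries, highest at day 10, and its log2 fold change there was 2.62 ± 0.29 (SE; limma adjusted p = 1.35e-05). XBP1, whose counts here do not separate spliced from unspliced messenger RNA, had 4117 and 4374 normalized counts at day 10, against 2243 and 2224 at day 0, a log2 fold change of 0.93 ± 0.27 (SE; limma adjusted p = 0.0114). The call was lost at an adjusted p of 0.0582 without shScr day 10 replicate 2 and 0.0506 without shScr day 0 replicate 2. EIF2AK3, the PERK kinase, was at 0.67 ± 0.22 (adjusted p = 0.0204), a call lost without shScr day 10 replicate 2 (0.40, adjusted p = 0.191) or either day 0 library. The other 3 were lower. ATF6 was at -0.29 ± 0.09 (adjusted p = 0.0122), not called without shScr day 10 replicate 1 (-0.19, adjusted p = 0.111) or either day 0 library. CREB3L1 and CREB3L2 encode transcription factors that sit in the ER membrane until cut. CREB3L1 had 8225 and 7175 normalized counts on day 0, 6583 and 5733 on day 4 and 4181 and 4060.0 on day 10, a log2 fold change of -0.90 ± 0.13 (SE; limma adjusted p = 0.000102) at day 10. CREB3L2 had 7998 and 8353 normalized counts on day 0, 6231 and 5566 on day 4 and 3866 and 4451 on day 10, a log2 fold change of -0.98 ± 0.09 (SE; limma adjusted p = 3.93e-06). In both genes every day 10 library was below every day 4 library, and every day 4 library was below both day 0 libraries.

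Among the translocation genes the changes were small apart from SSR4, a subunit of the translocon-associated TRAP complex. SSR4 had 2180.1 and 2257 normalized counts on day 0, 2531 and 2271 on day 4 and 4438 and 4065 on day 10 in shScr cells, a log2 fold change of 0.94 ± 0.09 (SE; limma adjusted p = 3.62e-06) at day 10. The other TRAP subunits were not called, at 0.23 ± 0.12 for SSR1, -0.20 ± 0.09 for SSR2 and 0.09 ± 0.12 for SSR3, so that 1 of the 4 subunits passed the test. Of the SEC61 channel, SEC61A1 was at 0.31 ± 0.10 and SEC61G at 0.48 ± 0.12, both called, and SEC61B at 0.14 ± 0.09, not called. SEC61A1 was not called without shScr day 10 replicate 2 (0.22), without shScr day 0 replicate 2 (0.26) or after quantile normalization (0.03). SEC61G, at 0.37 without shScr day 10 replicate 2, then had an adjusted p of 0.0558. Of the signal peptidase subunits SPCS2 was called (0.40 ± 0.13), but lost whichever of the 4 libraries compared was left out (adjusted p 0.058 to 0.0835). SPCS1 (0.18) and SPCS3 (0.12) were not called.

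Of the 5 vesicle genes, 4 were higher in shScr cells at day 10. KDELR3, a receptor that returns escaped chaperones from the Golgi to the ER, had 1820.0 and 1691 normalized counts on day 0, 2166 and 2403 on day 4 and 3083 and 3348 on day 10 in shScr cells, a log2 fold change of 0.87 ± 0.11 (SE; limma adjusted p = 4.21e-05) at day 10. Its paralog KDELR2 was not called (0.11). The COPII coat genes were called with nearly equal folds: SEC23B was at 0.44 ± 0.11, SEC24D at 0.40 ± 0.12 and SEC31A at 0.44 ± 0.11. SEC31A (adjusted p = 0.0584) and SEC24D (adjusted p = 0.0932) were not called without shScr day 10 replicate 2, and SEC24D was also lost without shScr day 0 replicate 2 and after quantile normalization.

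**Figure D2:**
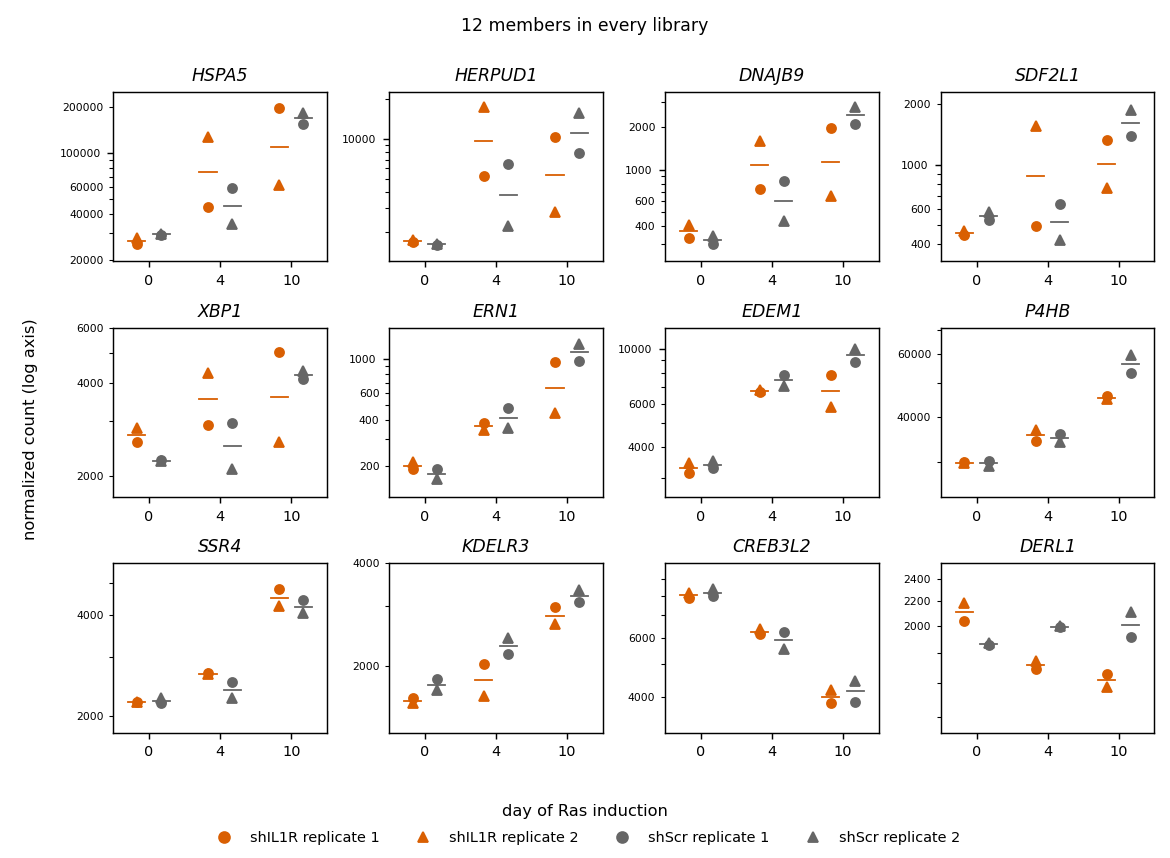
Normalized counts (log axis) of 12 genes in each library by day, with shIL1R left of shScr, circles for replicate 1, triangles for replicate 2 and a line at the geometric mean of the 2. HSPA5, HERPUD1, DNAJB9 and SDF2L1 separate the 2 shIL1R libraries at day 4 and at day 10 in opposite order, while P4HB, SSR4 and CREB3L2 keep the replicates closer.

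Most of the change in shScr cells fell after day 4. At day 4 against day 0, 5 of 45 genes were higher and 3 lower, while 19.4% of all tested genes were higher and 18.9% lower. No lumenal chaperone was called. The 45 held 10 genes at unadjusted p below 0.05, against 6604 of the 13924 tested genes, a larger share. Each of edgeR and DESeq2 called 9 of the 45, and their shares of all tested genes are not given here. The 5 higher genes were EDEM1 (1.13 ± 0.13 SE, limma adjusted p = 7.46e-05), PDIA5 (0.65 ± 0.13), SEC61G (0.59 ± 0.12), ERN1 (1.21 ± 0.29) and KDELR3 (0.38 ± 0.11), all of which were again higher at day 10 against day 0. The 3 lower genes were CREB3L2 (-0.47 ± 0.09), TXNDC5 (-0.74 ± 0.24) and SSR2 (-0.30 ± 0.09). ERN1 was not called without shScr day 4 replicate 1 (1.00, adjusted p = 0.0631) or shScr day 0 replicate 2, and TXNDC5, SSR2 and KDELR3 not without shScr day 4 replicate 2 or either day 0 library (KDELR3 0.30, SSR2 -0.23 and TXNDC5 -0.44 without the day 4 library). The count of 8 was 4 without shScr day 0 replicate 2 and 5 without shScr day 0 replicate 1 or shScr day 4 replicate 2. At day 10 against the same day 4 libraries, 30 of 45 were higher and 2, CREB3L1 and CREB3L2, were lower, with 21.7% of all tested genes higher and 22.4% lower. All 11 lumenal chaperones and all 6 disulfide isomerases were among the 30. This count rests on single libraries: it was 11 in either direction without shScr day 4 replicate 2 and 12 without shScr day 10 replicate 2, against 32 with all libraries. RNA45S5 took 3.41% of the reads in shScr day 4 replicate 2 and 1.79% in replicate 1, and its part in this count was not tested.

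With the receptor hairpin, chaperones and degradation genes were again among those higher at day 10. At day 10 against day 0 in shIL1R cells, 20 of 45 were higher and 6 lower, while 30.0% of all tested genes were higher and 30.3% lower; the median log2 fold change was 0.33. The count of 26 was 17 without either shIL1R day 0 library. Both day 10 libraries lay above both day 0 libraries in 24 genes (39.4% of all tested genes did so). In 8 both lay below, for which the share of all tested genes is not given here. HSPA5 had 25695 and 28083 normalized counts on day 0, 44589 and 128517 on day 4 and 198379.7 and 61620.2 on day 10 in shIL1R cells. Every later library was above both day 0 libraries, but replicate 2 was the higher at day 4 and replicate 1 at day 10, each by over 1 on the log2 scale. The log2 fold change was 2.04 ± 0.52 (SE; limma adjusted p = 0.00587) at day 10, 1.20 without shIL1R day 10 replicate 1 and 2.88 without replicate 2. HERPUD1 had 1661 and 1713 normalized counts on day 0, 5278 and 17580.2 on day 4 and 10362 and 2795 on day 10, with the same crossing of replicates; its log2 fold change at day 10 was 1.67 ± 0.68 (SE; limma adjusted p = 0.0522) and it was not called. It was at 0.73 (adjusted p = 0.377) without day 10 replicate 1 and 2.62 (adjusted p = 0.00572) without day 10 replicate 2, and was also called without any one of the 4 day 4 libraries (adjusted p 0.0358 to 0.0403). DNAJB9 had 331 and 409 normalized counts on day 0, 732 and 1606 on day 4 and 1958 and 652 on day 10, a log2 fold change of 1.62 ± 0.48 (SE; limma adjusted p = 0.0131) at day 10, which was 0.82 (adjusted p = 0.117) without day 10 replicate 1, 1.46 (adjusted p = 0.073) without day 0 replicate 1 and 2.41 without day 10 replicate 2. Besides HERPUD1, 6 genes not called with all libraries were called higher without day 10 replicate 2: SEL1L (0.90), XBP1 (0.89), DNAJB11 (0.52), DERL2 (0.39), SPCS2 (0.35) and SEC24D (0.35).

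Several other calls in shIL1R cells depended less on single libraries. SSR4 had 4779 and 4253 normalized counts at day 10, against 2203 and 2205 at day 0, a log2 fold change of 1.03 ± 0.09 (SE; limma adjusted p = 2.26e-06). KDELR3 was at 0.83 ± 0.11, EDEM1 at 1.03 ± 0.13, PDIA5 at 0.88 ± 0.13, P4HB at 0.60 ± 0.09 and ERN1, with 949.6 and 445 normalized counts at day 10, at 1.68 ± 0.29. These were called under all 22 alternatives, as were CRELD2, PDIA6, SYVN1, EDEM2 and HSPA5. For HSPA5 only the call was stable, since the size of its fold depended on which shIL1R day 10 library was kept, as given above. CREB3L2 had 7890.0 and 8169.7 normalized counts on day 0, 6145 and 6351 on day 4 and 3821 and 4189.7 on day 10, a log2 fold change of -1.005 ± 0.09 (SE; limma adjusted p = 4.11e-06), and was lower at each later day, as in shScr cells. CREB3L1 (-0.58 ± 0.13) and ATF6 (-0.61 ± 0.09) were also lower. The other 3 lower genes were DERL1 (-0.38 ± 0.08 SE, limma adjusted p = 0.0016), SSR3 (-0.32 ± 0.12) and SPCS3 (-0.31 ± 0.12). SSR3 was not called without shIL1R day 10 replicate 2 (-0.16, adjusted p = 0.247) or either shIL1R day 0 library, and SPCS3 not without shIL1R day 10 replicate 1 (-0.25, adjusted p = 0.161) or shIL1R day 0 replicate 2 (-0.15, adjusted p = 0.372). Without shIL1R day 10 replicate 1 the calls of HSP90B1 (0.28, adjusted p = 0.191), HYOU1 (0.36), SDF2L1 (0.73), MANF (0.52), PDIA3 (0.18), PDIA4 (0.28) and SEC31A (0.17) were lost, and the same 7 were lost without either shIL1R day 0 library. HYOU1, SDF2L1, PDIA4, SSR3 and SPCS3 lay so near the threshold that leaving out either shScr day 0 library, which alters the shared estimate of spread, also ended their calls (adjusted p 0.0537 to 0.0643), as did either shScr day 10 library for HYOU1, SDF2L1 and SPCS3 and either shScr day 4 library for HYOU1 and SPCS3.

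At day 4 against day 0 in shIL1R cells, 13 of 45 genes were higher and 4 lower, while 20.1% of all tested genes were higher and 20.3% lower. HERPUD1 (2.51 ± 0.68 SE, limma adjusted p = 0.0132), DNAJB9 (1.56 ± 0.48), HSPA5 (1.49 ± 0.52), EDEM1 (1.04 ± 0.13) and SYVN1 (0.98 ± 0.28) had the largest folds. The other 8 higher genes were ERN1 (0.85), PDIA5 (0.58), PDIA6 (0.43), CRELD2 (0.41), SEC61G (0.38), SEC24D (0.37), SSR4 (0.28) and P4HB (0.25). Leaving out shIL1R day 4 replicate 2, the library with the higher stress gene levels, left 7 calls and took HERPUD1 to 1.65 (adjusted p = 0.122), HSPA5 to 0.73 (adjusted p = 0.331), DNAJB9 to 0.99 (adjusted p = 0.196) and SYVN1 to 0.47 (adjusted p = 0.141). Without replicate 1 of that group, HERPUD1 was at 3.38 and HSPA5 at 2.26. The count was 4 without shIL1R day 0 replicate 1 and 3 without day 0 replicate 2, and each of the 16 calls other than that of EDEM1 was lost without at least 1 of the 4 libraries compared. HSPA5 was also lost without any one of the shScr day 0 and day 10 libraries (adjusted p 0.0579 to 0.0595). EDEM1 was called under every alternative, with 6710.0 and 6814 normalized counts at day 4, against 3143 and 3451 at day 0, and its groups did not overlap. The 4 lower genes were ATF6 (-0.26), CREB3L2 (-0.36), DERL1 (-0.30) and SPCS3 (-0.33). At day 10 against day 4, 7 genes were higher and 4 lower, while 17.6% of all tested genes were higher and 18.3% lower. The higher genes were ERN1 (0.83), SSR4 (0.75), KDELR3 (0.63), CALR (0.38), P4HB (0.35), SEC31A (0.32) and EDEM2 (0.31), and the lower ones CREB3L2 (-0.64), SSR3 (-0.43), SEC61G (-0.38) and ATF6 (-0.34). CREB3L2, SSR4 and KDELR3 were called under every alternative, and the count of 11 was 5 without shIL1R day 4 replicate 1 and 7 without either shScr day 0 library. Without shIL1R day 10 replicate 2, SEC61G (-0.25) and SSR3 (-0.27) were not called, while HSPA5 (1.39), HSP90B1 (0.64), SPCS2 (0.40), CANX (0.39) and CREB3L1 (-0.49) were.

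**Figure D3:**
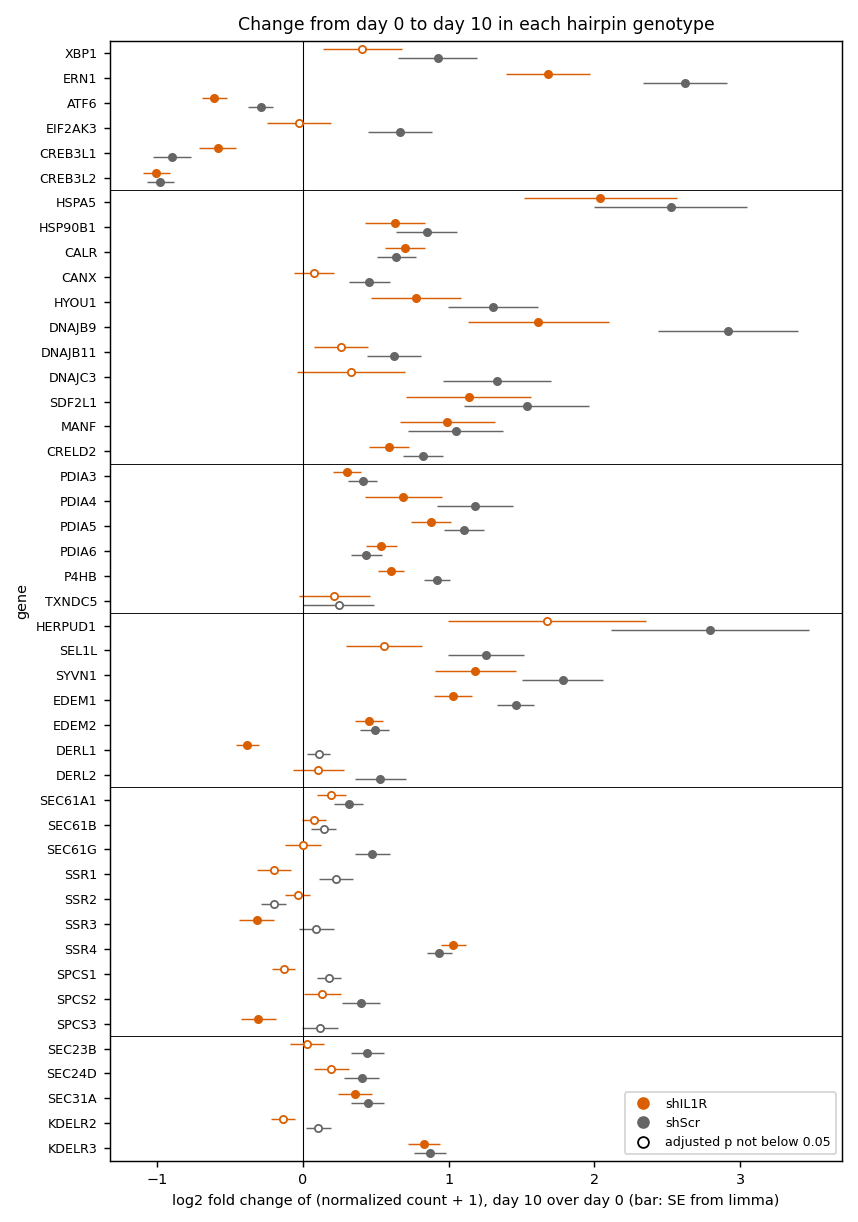
Log2 fold change ± SE at day 10 over day 0 for each of the 45 genes, in shIL1R and in shScr cells, with open symbols for genes not called by limma. Most lumenal chaperones and degradation genes lie to the right in both, with wider errors for HSPA5, DNAJB9 and HERPUD1 (SE 0.52, 0.48 and 0.68), and CREB3L1, CREB3L2 and ATF6 lie to the left in both.

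The day 10 calls can be set side by side, each hairpin having its own day 0 libraries. Of the 45 genes, 20 were called higher in both hairpins, 3 lower in both, 13 higher in shScr cells with no call in shIL1R cells, 3 lower in shIL1R cells with no call in shScr cells, and 6 had no call in either. The shares of all tested genes with the same pairs of calls are not given here, so these counts are not results about the 45 genes alone. A call in 1 hairpin and not in the other does not show that the changes differed, which the interaction test addresses. That test called DERL1 alone of the 45 (0 higher and 1 lower, against 0.876% and 1.54% of all tested genes). DERL1 had 1656 and 1576 normalized counts in shIL1R cells, against 1910.5 and 2112 in shScr cells at day 10, and 2034 and 2181 normalized counts in shIL1R cells, against 1857 and 1871 in shScr cells at day 0. The difference in its day 10 change was -0.49 ± 0.11 (SE; limma adjusted p = 0.0485), with a 95% interval of -0.74 to -0.24; it held in 8 of 22 alternatives and was lost without shIL1R day 10 replicate 2 (-0.45, adjusted p = 0.0608), shScr day 10 replicate 2 (-0.42, adjusted p = 0.192) or any day 0 or day 4 library. More of the 45 were called without shIL1R day 10 replicate 1, a fit for which the share of all tested genes is not given here. For ERO1A the difference was -0.87 ± 0.14 (SE; limma adjusted p = 0.0147), lost without either shScr day 0 library, shIL1R day 0 replicate 2 or shScr day 10 replicate 2 (adjusted p 0.0644 to 0.0882). At day 4 the interaction called 0 of 45 by limma, edgeR and DESeq2, and limma called 0.0287% of all tested genes. The 45 held 2 genes at unadjusted p below 0.05, against 1525 of the 13924 tested genes, a larger share.

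Compared directly at day 10, the set held few calls, near the share among all tested genes, and none of them held under every alternative. The called genes were EDEM1, DERL1 and SEC23B, all lower in shIL1R than in shScr cells. The estimates for most others were below 0 without passing the test. The log2 fold change of shIL1R over shScr was negative in 42 of 45 genes, with a median of -0.31. Over all tested genes it was positive in 49.5%, with a median of -0.003. In 39 of the 45, replicate 2 of shIL1R day 10 was below replicate 1, and the 42 is not given without it. The sign of the estimate depended on replicate 2 in part of the set. On the log2 scale relative to shScr day 0, replicate 1 was above both shScr day 10 libraries in HSPA5 (2.75 against 2.40 and 2.64) and XBP1 (1.17 against 0.88 and 0.97). Replicate 1 was below both in DNAJB9 (2.61 against 2.72 and 3.11) and EDEM1 (1.20 against 1.37 and 1.55). Of the 45, 3 were called lower and 0 higher, while 4.85% of all tested genes were lower and 4.37% higher. In 25 genes both shIL1R libraries lay below both shScr libraries, as in 25.0% of all tested genes, and in 1 they lay above (24.0%). Unadjusted p was below 0.05 in 17 of the 45, against 3815 of the 13924 tested genes, a smaller share. EDEM1 had 7819 and 5787 normalized counts in shIL1R cells, against 8835 and 9975 in shScr cells, a log2 fold change of -0.48 ± 0.13 (SE; limma adjusted p = 0.0408). SEC23B had 1863 and 1641 normalized counts in shIL1R cells, against 2217 and 2439 in shScr cells, a log2 fold change of -0.41 ± 0.11 (SE; limma adjusted p = 0.0485), and DERL1 one of -0.31 ± 0.08 (SE; limma adjusted p = 0.0345). In these 3 genes the groups did not overlap. All 3 calls were lost without shIL1R day 10 replicate 2 (EDEM1 -0.26, SEC23B -0.32, DERL1 -0.28), without shScr day 10 replicate 2 (EDEM1 -0.39, SEC23B -0.34, DERL1 -0.24) and in a fit of these 2 groups alone. They were also lost without any one of the day 0 libraries or the shScr day 4 libraries, which share in the estimate of spread (adjusted p 0.0539 to 0.0794), EDEM1 and SEC23B also without shScr day 10 replicate 1, and EDEM1 without either shIL1R day 4 library. Of the 22 alternatives, EDEM1 held in 9, SEC23B in 10 and DERL1 in 12. ERO1A had 8739 and 7782 normalized counts in shIL1R cells, against 12709 and 15226 in shScr cells, a log2 fold change of -0.75 ± 0.10 (SE; limma adjusted p = 0.00285), and was lost only in the fit of the 2 groups alone (adjusted p = 0.0856).

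HSPA5, DNAJB9, HERPUD1 and ERN1 were not called between the hairpins at day 10. HSPA5 had 198379.7 and 61620.2 normalized counts in shIL1R cells, against 155635 and 184102 in shScr cells, a log2 fold change of -0.61 ± 0.52 (SE; limma adjusted p = 0.482) with a 95% interval of -1.77 to 0.54. DNAJB9 was at -1.10 ± 0.48 (interval -2.16 to -0.04, adjusted p = 0.169), HERPUD1 at -1.05 ± 0.68 (-2.54 to 0.45, adjusted p = 0.346) and ERN1 at -0.76 ± 0.29 (-1.39 to -0.13, adjusted p = 0.117). Replicate 1 of shIL1R day 10 lay above both shScr libraries in HSPA5, between them in HERPUD1 and below both in DNAJB9 and ERN1, and replicate 2 lay below both in all 4. The result depended on which shIL1R library was kept. More of the 45 were called without replicate 1 than without replicate 2, and the share of all tested genes called in those fits is not given here. HSPA5 was at -1.46 without replicate 1 and at 0.23 without replicate 2. In the same order, DNAJB9 was at -1.89 and -0.30, HERPUD1 at -1.99 and -0.10, ERN1 at -1.31 and -0.22, and XBP1 at -0.72 and 0.25. The summed fibroblast markers separated the same 2 libraries, at 327697 normalized counts in replicate 1 and 485136 in replicate 2, and their part in the result was not tested. CREB3L1 was among the 3 positive genes, with 4772 and 6354 normalized counts in shIL1R cells, against 4181 and 4060.0 in shScr cells (0.42 ± 0.13, adjusted p = 0.0663). At day 0 and day 4, 0 of 45 were called between the hairpins by limma, edgeR and DESeq2. Of all tested genes, limma called 0.0646% and 0.280% at these days. At unadjusted p below 0.05 were 2 and 5 of the 45, against 1187 and 2540 of the 13924 tested genes, which are larger shares.

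The 2 libraries of a group differed in the set as a whole. At shIL1R day 4, 38 of the 45 genes were higher in replicate 2, by a median of 0.24 on the log2 scale, and 8 differed by over 1, as did 3.81% of all tested genes. At shIL1R day 10, 39 were higher in replicate 1, the median of replicate 2 minus replicate 1 being -0.31. There 4 were past 1, as were 7.58% of all tested genes, a similar share. At shScr day 4, 41 were higher in replicate 1 (median -0.16), and at shScr day 10, 42 in replicate 2 (0.16). The day 0 groups differed least, with medians of 0.08 in shIL1R and 0.01 in shScr cells. Over all tested genes the same medians lay between -0.01 and 0.01. The share of all tested genes higher in replicate 2 was 49.6% at shIL1R day 4 and 49.4% at shIL1R day 10. It was 45.6% at shScr day 4 and 51.8% at shScr day 10. As a share of all reads the 45 genes made up 2.14 and 1.42% at shIL1R day 10, against 2.01 and 2.22% at shScr day 10, and 1.29 and 1.90% at shIL1R day 4, against 1.41 and 1.22% at shScr day 4. DDIT3 (CHOP), a transcription factor of the PERK branch, split the same libraries. It had 3428 and 8297 normalized counts in shIL1R cells, against 3043 and 807 in shScr cells at day 4, and 8470.1 and 1936 normalized counts in shIL1R cells, against 5589.8 and 7557 in shScr cells at day 10. The cause of these differences was not tested.

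**Figure D4:**
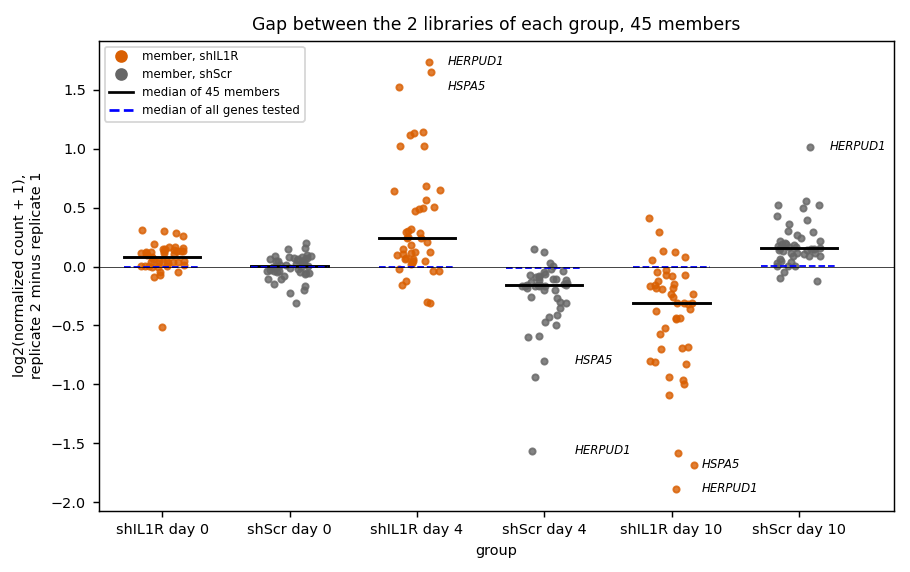
Replicate 2 minus replicate 1 of each of the 45 genes (points, log2(normalized count + 1)) in the 6 groups, shIL1R left of shScr within a day, with a black line at the median of the 45 and a dashed blue line at the median of all tested genes. The points lie mostly above 0 at shIL1R day 4 and shScr day 10 and mostly below 0 at shIL1R day 10 and shScr day 4.

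Grouped by the promoter elements printed above, the 10 genes with an ERSE or ERSE-II were all called higher in shScr cells at day 10, with a median log2 fold change of 0.89. Of the 4 genes with a UPRE alone, 2 were higher (median 0.56), and of the 26 matched genes with none of the 3, 19 were higher and 3 lower (median 0.51). In shIL1R cells at day 10, 7 of the 10 were higher (median 0.67), 2 of the 4 were higher and 1 lower (0.52), and 10 of the 26 were higher and 4 lower (0.23). Of all tested genes, 32.5% were higher and 31.3% lower in shScr cells, and 30.0% and 30.3% in shIL1R cells. The first class overlaps a role: CALR, CANX, CRELD2, HSP90B1, HSPA5, HYOU1 and SDF2L1 are lumenal chaperones, every one of which was called higher in shScr cells. The largest fold of all, that of DNAJB9, belonged to the group with no match, as did those of ERN1 and EDEM1. The median of replicate 2 minus replicate 1 was 0.53 over the 10, 0.03 over the 4 and 0.21 over the 26 at shIL1R day 4, -0.75, -0.16 and -0.34 at shIL1R day 10, and 0.14, 0.0097 and 0.18 at shScr day 10. No test was made of these differences, which rest on few genes.

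**Figure D5:**
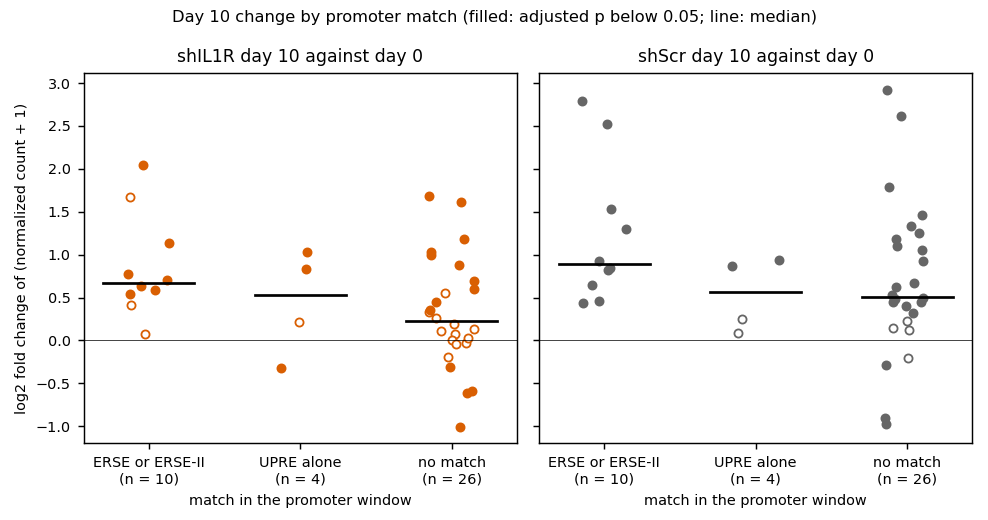
Log2 fold change at day 10 over day 0 by promoter class (ERSE or ERSE-II, UPRE alone, none of the 3), in shIL1R cells (left) and shScr cells (right), each point a gene and each line the median. In shScr cells the 10 genes of the first class lie between 0.44 and 2.79, and the 26 of the last between -0.98 and 2.92.

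Neighbouring pathways were examined through lists of other genes. Their counts at day 10 over day 0 stand beside 32.5% of all tested genes called higher and 31.3% lower in shScr cells, and 30.0% higher and 30.3% lower in shIL1R cells. Of 11 genes of the PERK and ATF4 arm, 6 were higher and 2 lower in shScr cells at day 10 (median log2 fold change 0.80), and 5 higher and 2 lower in shIL1R cells (0.05). TRIB3, a pseudokinase induced through ATF4, had 11484 and 4001 normalized counts in shIL1R cells, against 8187 and 8832 in shScr cells at day 10; in shScr cells it was at 3.27 ± 0.42 over day 0. ATF3 had 1067 and 461 normalized counts in shIL1R cells, against 1074 and 1254 in shScr cells, and was at 2.98 ± 0.30 in shScr cells. Of 15 other degradation genes, 7 were higher and 2 lower in shScr cells (0.17), and 3 and 3 in shIL1R cells (0.06). DERL3, a stress-induced relative of DERL1 counted at 4.73 to 79.7 normalized counts, was at 1.93 ± 0.64, MAN1B1, an ER mannosidase, at 0.91 ± 0.07, and EDEM3 at 0.78 ± 0.10 in shScr cells. EDEM3 was lower in shIL1R than in shScr cells at day 10, with 1936 and 2194 normalized counts in shIL1R cells, against 2950.1 and 3564 in shScr cells (-0.65 ± 0.10, limma adjusted p = 0.00547).

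Of 9 other oxidative folding genes, 5 were higher and 1 lower in shScr cells at day 10 (median log2 fold change 0.43), and 4 and 3 in shIL1R cells (0.22). ERO1B, the second ER oxidase, was at 2.39 ± 0.36, QSOX1, a secretory sulfhydryl oxidase, at 0.82 ± 0.12 and TMX3, a membrane disulfide isomerase, at -0.74 ± 0.09 in shScr cells. DNAJC10, a disulfide reductase with a J domain, had 3159 and 2264 normalized counts in shIL1R cells, against 4343 and 4962 in shScr cells at day 10, a log2 fold change of -0.80 ± 0.13 (SE; limma adjusted p = 0.00722). Of 18 glycosylation and glycan trimming genes, 12 were higher and 1 lower in shScr cells (0.37), and 9 and 4 in shIL1R cells (0.23). The largest folds in shScr cells were those of GFPT1, which makes the sugar precursor of N-glycans (1.13 ± 0.16), the glucosidase MOGS (1.02 ± 0.13) and the oligosaccharyltransferase subunit DAD1 (0.82 ± 0.07). Of 23 further coat and cargo receptor genes, 17 were higher and 3 lower in shScr cells (0.40), and 10 and 4 in shIL1R cells (0.15), with SEC24A at 1.42 ± 0.23, SEC31B at 1.16 ± 0.31 and COPE at 0.81 ± 0.08 in shScr cells. Of 15 signal recognition and translocation genes, 6 were higher and 3 lower in shScr cells (0.09), and 2 and 5 in shIL1R cells (-0.13); SRP9 was at -0.85 ± 0.11 and SRPRA, a subunit of the receptor for the particle, at 0.75 ± 0.09 in shScr cells. Between the hairpins at day 10, these 6 lists of 11, 15, 9, 18, 23 and 15 tested genes held 8 calls, all lower in shIL1R cells. Of all tested genes, 4.85% were lower and 4.37% higher. The 8 were EDEM3, DNAJC10, the cargo receptor LMAN1 (-0.46 ± 0.12), UGGT2, a relative of the folding sensor of glycoproteins (-0.49 ± 0.10), TXNDC11 (-0.36 ± 0.09), VLDLR (-0.61 ± 0.10), the signal peptidase subunit SEC11C (-0.74 ± 0.20) and SRP54 (-0.33 ± 0.08). A separate list of collagen folding genes, given below, held calls in both directions, with PLOD2 and P4HA2 lower and CRTAP higher. Without shIL1R day 10 replicate 2, LMAN1 (-0.34), UGGT2 (-0.47), TXNDC11 (-0.35), SEC11C (-0.42) and SRP54 (-0.31) were not called. The shIL1R day 10 libraries also differed in these lists. Relative to the mean of the shScr day 0 libraries, the median log2 level in replicates 1 and 2 was 0.46 and 0.18 for the PERK and ATF4 arm, 0.09 and 0.18 for the degradation genes, 0.39 and 0.21 for oxidative folding, 0.35 and 0.12 for glycosylation, 0.27 and 0.04 for coats and cargo receptors and -0.07 and -0.25 for signal recognition and translocation.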

How the data were processed

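Polyadenylated RNA from 12 samples of IMR90 hTERT cells was sequenced from strand-specific libraries, per the labels. The authors deposited 1 table of normalized counts per gene (the signal analysed here). TopHat, HTSeq and DESeq2 and the build hg19 are named in the submitters' processing notes; their versions, the annotation and the handling of strand in counting are not given in the sources used here. In every library the deposited normalized counts were whole multiples of 1 value (100% of values within 0.001 reads), which gave the reads per library.

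Values were tested as log2(normalized count + 1) with limma 3.58.1 (R 4.3.3; trended empirical Bayes, 6 group means, 6 residual and 4.98 prior degrees of freedom), which understates the change of low genes. Genes with at least 10 in at least 2 of 12 libraries were kept (13924), p-values were adjusted by Benjamini-Hochberg over these for each of 11 comparisons, and a gene was called at adjusted p below 0.05. The day 4 and day 10 comparisons of a hairpin share its day 0 libraries. Alternatives, 22 with each library left out, included other pseudocounts and filters, TMM and quantile scaling, a replicate block, and edgeR 4.0.16 and DESeq2 1.42.0 on the recovered reads. The scripts were tested on simulated data. The members and lists were chosen with earlier results of these data known. All 45 genes are accounted for; from each other list the up to 3 called genes with the largest fold in shScr day 10 against day 0 and in shIL1R against shScr at day 10 could be named. Promoter windows came from RefSeq (GRCh38.p14). HSPA1A and HSPA1B, near-identical copies, did not enter the tests.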

Additional observations from a re-analysis of the deposited data

Results flagged for a closer look

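The change in DERL1 from day 0 to day 10 differed between the hairpins by the interaction test, by -0.49 on the log2 scale (limma adjusted p = 0.0485): it was -0.38 in shIL1R cells and 0.11 in shScr cells, and the call held in 8 of 22 alternatives. The same test gave a difference of -0.87 for ERO1A (limma adjusted p = 0.0147), from changes of 0.74 in shIL1R cells and 1.61 in shScr cells, and this call held in 18 of 22.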

How the results depend on the processing

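Leaving out each library in turn, the number of the 45 genes called lay between 4 and 12 for shScr day 4 against day 0, 23 and 38 for shScr day 10 against day 0, 11 and 34 for shScr day 10 against day 4, 3 and 24 for shIL1R day 4 against day 0, 17 and 32 for shIL1R day 10 against day 0, 5 and 14 for shIL1R day 10 against day 4, 0 and 23 for shIL1R against shScr at day 10, and 0 and 12 for the difference in the day 10 change, and stayed at 0 for the hairpins at day 0 and day 4 and for the difference in the day 4 change. The 23 and the 12 came without shIL1R day 10 replicate 1. The shares of all tested genes called in these fits are not given here, so the counts are not results about the 45 genes alone. For the hairpins at day 10, 1 gene was called with no filter on low values, 0 in a fit of the groups compared alone and 7 by DESeq2, against 3; for the difference in the day 10 change, 0 were called with no filter, after quantile normalization, with a replicate block and in the groups compared alone, against 1; and for shIL1R day 10 against day 4 the groups compared alone gave 3, against 11. In the other alternatives (pseudocounts of 0.5 and 5, a filter of 50, TMM, edgeR) each count stayed within 1.5 times. For shScr day 10 against day 0, edgeR called 36, DESeq2 36 and the fit with the replicate block 36. The replicate block gave 8 for shScr day 4 against day 0, 31 for shScr day 10 against day 4, 15 for shIL1R day 4 against day 0, 25 for shIL1R day 10 against day 0, 9 for shIL1R day 10 against day 4 and 3 for the hairpins at day 10. The labels do not say whether same-numbered libraries are related, and the main fit did not pair them. Over 15 pairs of groups the correlation of same-numbered deviations lay between -0.10 and 0.23, with 4 over 0.1. Within shIL1R it was 0.23 between day 0 and day 4, 0.20 between day 4 and day 10 and 0.05 between day 0 and day 10. These values cannot settle whether the libraries are paired. No called value changed sign. The cause of these changes was not tested.

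With 2 libraries a group, a change that was not called is undecided. Depth is a limit for TXNDC5 and DERL3, which had few counts.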

Other observations

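Most listed chaperones outside the ER were lower at day 10. Over all tested genes, 32.5% were higher and 31.3% lower in shScr cells at day 10 against day 0, and 30.0% and 30.3% in shIL1R cells. Of 14 tested chaperones of the cytosol and mitochondria, out of 16 listed, 13 were lower and 0 higher in shScr cells at day 10 against day 0 (limma; median log2 fold change -0.63), and 10 lower and 0 higher in shIL1R cells (-0.41). CCT5, a subunit of the TRiC folding ring, had 4756 and 4961 normalized counts at day 10, against 9849 and 10729 at day 0 in shScr cells (-1.08 ± 0.08). HSP90AA1, the inducible cytosolic Hsp90, had 30317 and 32949.8 normalized counts at day 10, against 62392 and 67071 at day 0 (-1.03 ± 0.10), while its ER relative HSP90B1 was higher in the same libraries (0.85 ± 0.21). HSPB1, a small heat shock protein, was at -0.83 ± 0.09. Between the hairpins at day 10, HSPB1 was at 0.31 ± 0.09 (limma adjusted p = 0.0556) and the mitochondrial chaperonin HSPD1 at -0.34 ± 0.15 (adjusted p = 0.172), neither called.

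Beside the same shares of all tested genes, of 11 genes that fold and modify collagen, 6 were higher and 2 lower in shScr cells at day 10 (median log2 fold change 0.57), and 7 higher and 2 lower in shIL1R cells (0.45). P4HA2, a catalytic subunit that pairs with P4HB, had 18432 and 21389 normalized counts at day 10, against 4812 and 4416 at day 0 in shScr cells (2.11 ± 0.12), and the lysyl hydroxylases PLOD2 (1.97 ± 0.19) and PLOD1 (1.37 ± 0.08) were also higher. At day 10, PLOD2 had 16237 and 12147 normalized counts in shIL1R cells, against 27088 and 40175 in shScr cells, a log2 fold change of -1.23 ± 0.19 (SE; limma adjusted p = 0.00502), and P4HA2 was lower in shIL1R cells by the same comparison (-0.64 ± 0.12, limma adjusted p = 0.00945), while CRTAP, which holds the prolyl 3-hydroxylase complex together, was higher (0.43 ± 0.07). Relative to shScr day 0, the median log2 level of the collagen list was 0.61 in replicate 1 and 0.37 in replicate 2 of shIL1R day 10, and that of the cytosolic and mitochondrial list -0.55 and -0.52.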
